A study of Capra hircus with 3 samples.

Results

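Collagens are the main structural proteins of the matrix that surrounds the secretory alveoli and ducts of the mammary gland. They were followed here at the RNA level in Laoshan dairy goats at 3 stages of lactation. Members were all protein-coding genes whose symbol is COL, a number, A and a number, taken by their NCBI gene ID. Of 44 such symbols in the RefSeq gene table of the goat, 27 had deposited expression values, out of 13023 protein-coding genes with values. They comprised 5 fibrillar genes, 4 genes of the basement membrane type and 18 other collagens. The remaining 17 were not analysed here. These are COL2A1, COL5A1, COL11A1, COL11A2, COL24A1 and COL27A1 of the fibrillar class, COL4A3 and COL4A4 of the basement membrane class, and COL9A2, COL9A3, COL10A1, COL19A1, COL20A1, COL22A1, COL23A1, COL25A1 and COL28A1.

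A collagen molecule is a trimer of chains wound into a triple helix. Fibrillar collagens of types I, III and V pack into the fibrils that give connective tissue its tensile strength. Type IV collagen forms the sheet-like network of basement membranes, on which the mammary epithelium, the myoepithelium and the capillaries rest. Other types coat or link the fibrils, form beaded filaments, anchor epithelium to stroma or span the cell membrane. In the mammary gland, stromal fibroblasts are the main source of fibrillar collagens, and basement membrane collagen is laid down by several cell types.

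Mammary tissue was collected by surgery from 4-year-old goats in the third lactation, at 10, 90 and 210 days after parturition. By the study's account the same 5 goats were sampled at each stage, and their RNA was pooled into 1 library per stage, named E (early), P (peak) and L (late). Levels are FPKM, fragments scaled to transcript length and library size, so levels of different genes are comparable per length. With 1 pooled library per stage there is no replicate error, no difference was tested, and every ratio compares libraries and not the variation among goats. The clean read totals given with the study were alike for the 3 libraries, but the reads behind each gene's FPKM were not used here, so no counting interval is given. Of the values with 7 digits, 95.7% in E, 99.3% in P and 97.3% in L end in 5, as means of a pair of values would, and whether each FPKM is such a mean was not tested. The median log2 ratio over all protein-coding genes was 0.01 for P over E, -0.03 for L over E and -0.02 for L over P.

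The P and L libraries are named by their labels alone. Per-library values published with the study for lncRNA genes order P and L the other way round from the labelled columns, and the labels could not be settled from the deposited values. If the names were exchanged, each value given for P below would belong to late lactation and each value for L to peak lactation. The milk genes set the P library apart. All 5 milk genes examined were at least 2-fold lower in P than in E, beside 6.69% of all protein-coding genes. Among them CSN1S1 had 25057 FPKM in E, 12017 in P and 39445 in L. LALBA had 70053 FPKM in E and 15214 in P and was listed at 0 in L, so a value of 0 is not read here as absence. Luminal epithelial markers were present in each library, with a summed level over 6 genes of 1580, 984 and 1530 FPKM in E, P and L. The low sum in P came from ELF5, with 879, 244 and 875 FPKM, while KRT8, KRT18 and CDH1 were higher in P than in E. None of 4 skeletal muscle markers and none of 4 cartilage markers searched by symbol was listed.

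All 27 collagen genes were above 0 FPKM in every library, 22 reached at least 1 FPKM in every library and 15 reached at least 10 FPKM. Every locus used here had at least 0.674 FPKM in its highest library. COL13A1, COL6A5 and COL6A6 were the 3 collagen genes with a library under this value, so they were listed through the libraries in which they were high. The summed level of the 27 collagen genes was 918 FPKM in E, 644 FPKM in P and 841 FPKM in L, lowest in P. As a share of the FPKM of all protein-coding genes it was 0.192% in E, 0.234% in P and 0.2% in L, highest in P. The order of the libraries for this total thus depended on the scaling. COL1A1, COL1A2 and COL3A1 made up 51.4% of the collagen FPKM in E, 36.4% in P and 45.8% in L. E was the highest library for 8 members, P for 10 and L for 9, beside 23.4%, 43.4% and 33.2% of protein-coding genes. Across the 3 libraries 17 members, or 63.0%, stayed within 2-fold, beside 72.2% of the 12764 protein-coding genes above 0 in every library. The other 10 members are described with their classes.

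**Figure D1:**
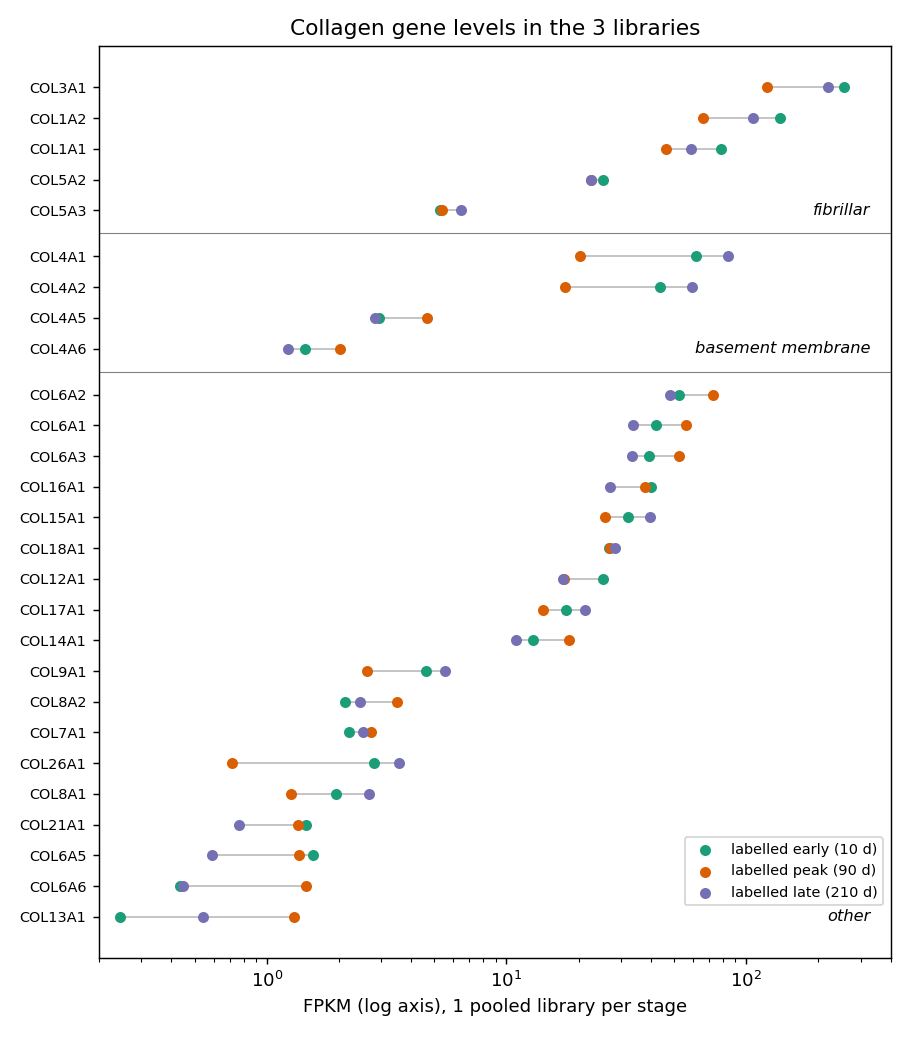
FPKM of the 27 collagen genes (log axis), with 1 point for each pooled library and a line from the lowest to the highest. COL3A1, COL1A2, COL1A1, COL4A1 and COL4A2 have their lowest point in the library labelled peak (for COL1A1 on the FPKM scale and not after division by the protein-coding sum), while COL6A1, COL6A2 and COL6A3 have their highest point there.

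Fibrillar collagens held the largest share of collagen FPKM in the E and L libraries, and their summed level was lowest in P. COL3A1, the chain of type III collagen, had 255 FPKM in E, 123 FPKM in P and 219.8 FPKM in L, and was the highest of all members in each library. COL1A2, the alpha 2 chain of type I collagen, had 138 FPKM in E, 65.8 FPKM in P and 106 FPKM in L. COL1A1, the alpha 1 chain of type I, had 78.2, 46.3 and 59.0 FPKM in the same order. For these 3 genes P was the lowest library and E the highest on the FPKM scale, which for COL1A1 did not hold after division by the protein-coding sum. The level in E was 2.08 times that in P for COL3A1, 2.1 times for COL1A2 and 1.69 times for COL1A1, which is log2 ratios of P over E of -1.06, -1.07 and -0.76. L was closer to E, with log2 ratios over E of -0.21, -0.38 and -0.41. COL1A1 lies on scaffold NW_005100886.1 from 12175583 to 12193654 of the assembly used for the deposited values, which those values do not name.

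Type V collagen, a minor component that sits inside type I fibrils and regulates their diameter, did not share this order. COL5A2 had 25.2 FPKM in E, 22.5 FPKM in P and 22.5 FPKM in L, a log2 ratio of P over E of -0.16. COL5A3 had 5.27, 5.36 and 6.44 FPKM. Neither gene reached 2-fold between any pair of libraries. COL5A2 and COL3A1 are neighbours on scaffold NW_005100617.1, separated by 16965 nt, and differed in their P over E ratio nonetheless. The share of COL5A2 relative to COL1A2 was 0.183 in E, 0.342 in P and 0.211 in L.

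In the basement membrane class, the major type IV chains showed the widest swing among members above 10 FPKM, and the minor chains went the other way. COL4A1 had 62.0 FPKM in E, 20.2 FPKM in P and 84.2 FPKM in L. COL4A2 had 43.8 FPKM in E, 17.5 FPKM in P and 59.7 FPKM in L. Both were lowest in P and highest in L, and the products of both join in the same trimer, found in nearly all basement membranes. E was 3.06 times P for COL4A1 and 2.50 times P for COL4A2, and L was 4.16 and 3.41 times P. The P over E ratio of COL4A1 was lower than that of all but 2.39% of protein-coding genes, and its L over P ratio was higher than that of 98.3% of them. The pair lies on scaffold NW_005100798.1, COL4A1 from 12205213 to 12282932 and COL4A2 from 12335509 to 12494498, 52576 nt apart.

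COL4A5 and COL4A6, chains of the basement membranes of selected epithelia and of smooth muscle, were far lower. COL4A5 had 2.92 FPKM in E, 4.65 FPKM in P and 2.82 FPKM in L. COL4A6 had 1.44, 2.02 and 1.22 FPKM. Both were highest in P, by 1.59 and 1.41 times over E, and neither reached 2-fold. COL4A5 stood at 0.0472 of the level of COL4A1 in E, 0.230 in P and 0.0335 in L. The values of both genes are given for 1 merged locus on scaffold NW_005100988.1 from 2441218 to 3039054, so a sharing of reads between the genes was not tested.

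The classes differed in how the libraries were ordered. Summed over the fibrillar genes, the level was 502 FPKM in E, 263 FPKM in P and 414 FPKM in L. Over the type IV genes it was 110 FPKM in E, 44.4 FPKM in P and 148 FPKM in L, while the 18 other collagens together had 306, 337 and 279 FPKM. Type IV genes contributed 12.0% of the collagen FPKM in E, 6.89% in P and 17.6% in L, and fibrillar genes 54.7%, 40.7% and 49.3%. Other collagens held 52.4% of the collagen FPKM in P but 33.3% in E and 33.1% in L. The median log2 ratio of P over E was -0.76 for the 5 fibrillar genes, -0.42 for the 4 type IV genes and -0.04 for the 18 others, beside 0.01 over all protein-coding genes, and all 3 medians were above 0 after division by the protein-coding sum. The type IV median joins 2 chains at -1.61 and -1.32 with 2 at 0.67 and 0.49 and describes neither pair. Levels in bulk tissue do not tell fewer cells of a type from less RNA per cell.

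**Figure D2:**
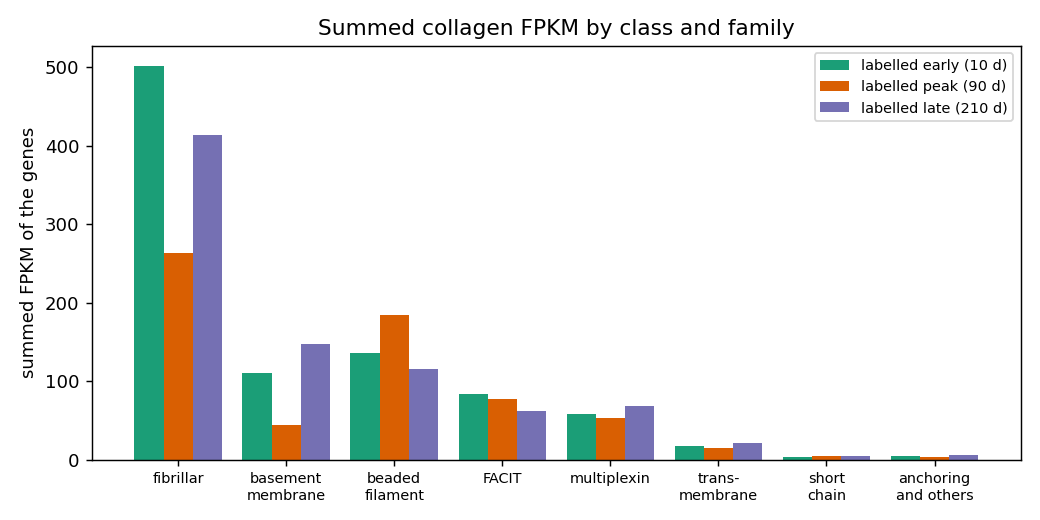
Summed FPKM (axis from 0) of the collagen genes of each class or family, with 1 bar per pooled library and no error, since there are no replicates. The fibrillar and basement membrane sums are lowest in the library labelled peak (263 and 44.4 FPKM), and the beaded filament sum is highest there (184 FPKM).

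Type VI collagen forms beaded filaments around cells and between fibrils, and its 3 main chains were highest in P. COL6A2 had 52.3 FPKM in E, 72.6 FPKM in P and 48.0 FPKM in L. COL6A1 had 42.1, 56.0 and 33.8 FPKM, and COL6A3 had 39.4, 52.4 and 33.3 FPKM. The 3 chains had nearly the same ratios, with log2 ratios of P over E of 0.47, 0.41 and 0.41 and of L over P of -0.60, -0.73 and -0.65, and none reached 2-fold. They lay close to each other in level, COL6A1 at 0.806, 0.772 and 0.705 of COL6A2 in E, P and L, and COL6A3 at 0.753, 0.722 and 0.694. COL6A1 and COL6A2 are neighbours on scaffold NW_005100612.1, 130817 nt apart, and COL6A3 lies on another scaffold. Their level relative to type I differed by library, and COL6A2 stood at 0.379 of COL1A2 in E, 1.10 in P and 0.451 in L.

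COL6A5 and COL6A6, chains that can take the place of the alpha 3 chain in type VI collagen, were near 1 FPKM. COL6A5 had 1.57 FPKM in E, 1.36 FPKM in P and 0.592 FPKM in L, and E was 2.64 times L. COL6A6 had 0.434 FPKM in E, 1.46 FPKM in P and 0.448 FPKM in L. Its level in P, through which it was listed, was 3.35 times that in E and 3.25 times that in L. The locus of COL6A6 is also given for entries of another gene ID that had no match in the gene table, and the precision of values this low is unknown.

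**Figure D3:**
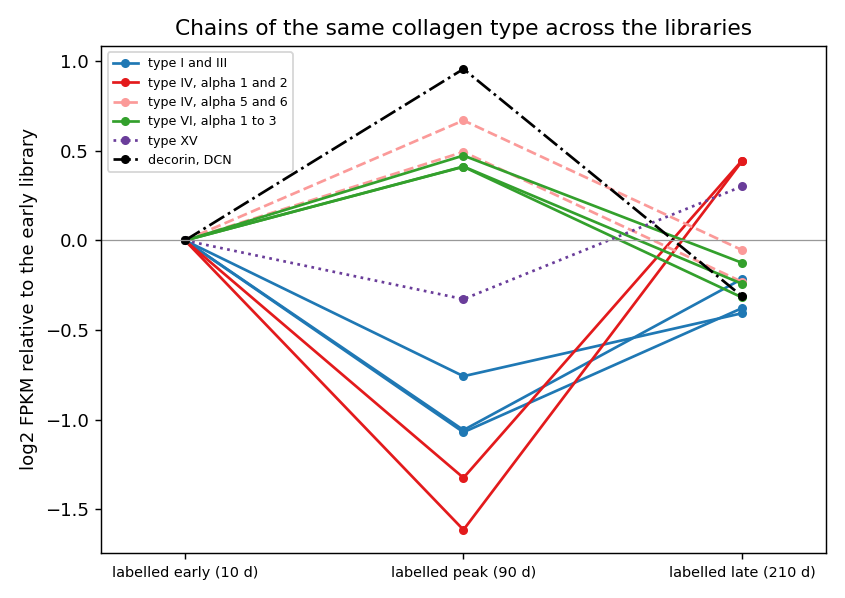
log2 FPKM relative to the E library for chains grouped by collagen type, with 1 line per gene and 1 point per pooled library. COL4A1 and COL4A2 are furthest below E in the library labelled peak and above E in the library labelled late, type I and III chains are lowest in the library labelled peak on this FPKM scale, and the type VI chains and decorin (DCN) are highest there.

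FACIT collagens, which attach to the surface of fibrils through interrupted triple helices, split in their direction. COL16A1 had 40.1 FPKM in E, 37.7 FPKM in P and 27.1 FPKM in L. COL12A1, found in tissue under tension, had 25.2, 17.4 and 17.2 FPKM. Both were highest in E, and E was 1.48 and 1.47 times L. COL14A1 had 12.9 FPKM in E, 18.2 FPKM in P and 11 FPKM in L, a course like that of type VI. COL9A1, best known from cartilage, had 4.61, 2.63 and 5.56 FPKM, and L was 2.11 times P. COL21A1 had 1.45 FPKM in E, 1.34 FPKM in P and 0.764 FPKM in L.

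Among collagens of the basement membrane zone outside type IV, COL15A1 had 32.2 FPKM in E, 25.7 FPKM in P and 39.7 FPKM in L. This is the order of COL4A1 and COL4A2 with a smaller span, L being 1.55 times P. COL18A1, the precursor of endostatin, had 26.7, 27.0 and 28.3 FPKM and stayed nearly flat. COL17A1, the transmembrane collagen of hemidesmosomes that tie basal epithelial cells to their basement membrane, had 17.7 FPKM in E, 14.2 FPKM in P and 21.2 FPKM in L. COL7A1, which forms the anchoring fibrils beneath squamous epithelium, had 2.20, 2.72 and 2.53 FPKM at a locus also listed for another gene ID. None of these 4 genes reached 2-fold.

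The remaining members were low. COL26A1 had 2.81 FPKM in E, 0.714 FPKM in P and 3.55 FPKM in L, so that E was 3.93 times and L 4.97 times P. Of the short-chain collagens, which form hexagonal networks, COL8A1 had 1.95, 1.27 and 2.66 FPKM and L was 2.1 times P, whereas COL8A2 had 2.12, 3.49 and 2.46 FPKM and was highest in P. COL13A1, a transmembrane collagen of cell contacts, had 0.244 FPKM in E, 1.30 FPKM in P and 0.540 FPKM in L. COL13A1 had the highest P over E ratio of all members, 5.33 times, at the lowest mean level, and was listed through P.

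Counted over all members, 7 of 27 collagen genes were at least 2-fold apart between P and E, beside 17.2% of 12937 protein-coding genes. COL13A1 and COL6A6 were higher in P, beside 10.5% of all genes, and COL4A1, COL4A2, COL1A2, COL3A1 and COL26A1 were higher in E, beside 6.69%. Between L and E only COL13A1 was at least 2-fold higher in L, beside 1.64% of all genes, and only COL6A5 was at least 2-fold higher in E, beside 5.44%, which together compare with 7.08% of 12777 genes. Between L and P, 8 members were 2-fold apart, beside 24.7% of 12807 genes. COL4A1, COL4A2, COL26A1, COL8A1 and COL9A1 were higher in L, beside 8.57%, and COL13A1, COL6A5 and COL6A6 higher in P, beside 16.2%. These last 3, which also gave every other call higher in P and both calls between L and E, had a library under 0.674 FPKM. They were listed through the libraries in which they were high, so no direction is read from their calls. The comparisons share libraries and are not independent. The members' shares, 25.9% for P and E, 7.41% for L and E and 29.6% for L and P, lay near those of all genes, so the counts as such say nothing particular about collagens. With at least 1 FPKM required in both libraries, 4 of 24 members were 2-fold apart between P and E and 4 of 22 between L and P, all of them lower in P, and 0 of 23 between L and E. Under the same minimum 12.5% of all genes were 2-fold apart between P and E, 5.79% being lower in P, 18% between L and P, 7.64% being higher in L, and 2.88% between L and E.

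**Figure D4:**
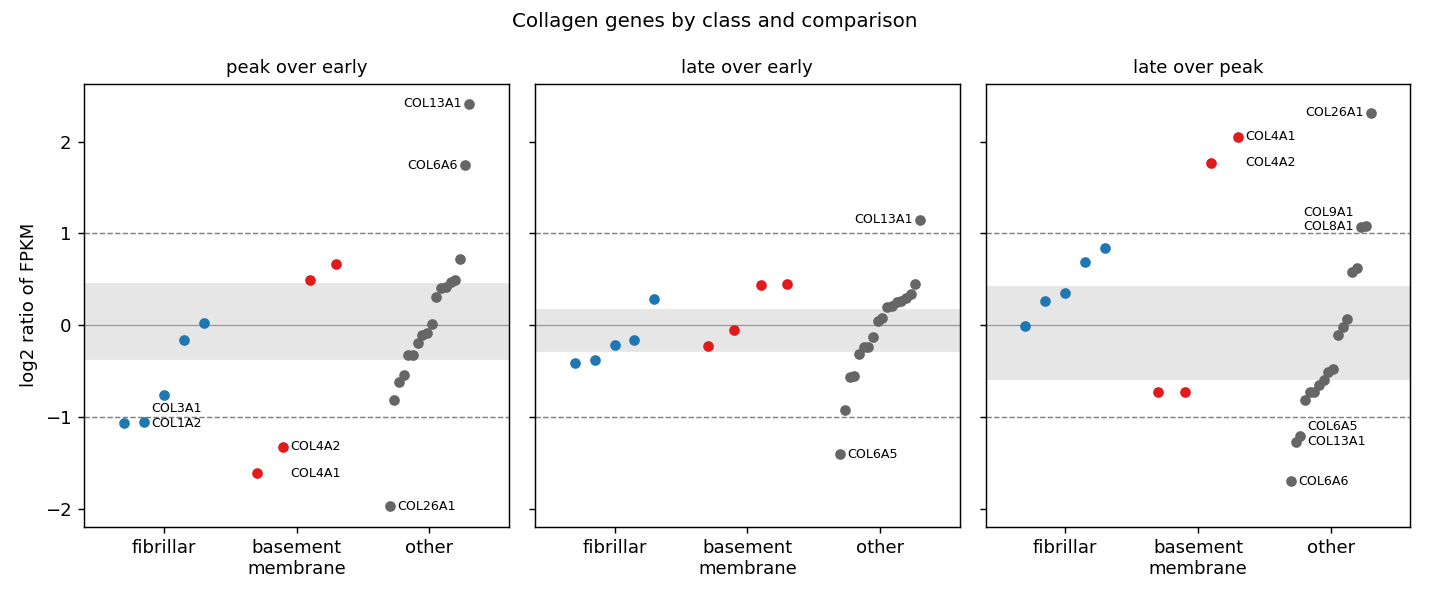
log2 ratio of FPKM for each of the 27 collagen genes by class, 1 panel per comparison of 2 pooled libraries. Dashed lines mark 2-fold, the grey band is the interquartile range of all protein-coding genes (-0.37 to 0.45 for P over E), and genes at least 2-fold apart are named.

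The direction of several members depended on what a library is scaled to. Division by the FPKM sum of all protein-coding genes moved every log2 ratio by 0.79 for P over E, 0.18 for L over E and -0.61 for L over P, and the members 2-fold apart then numbered 10 higher and 1 lower in P than in E, beside 36.8% and 1.84% of all genes, and 3 higher and 12 lower in L than in P, beside 3.34% and 31.6%. COL4A1, COL4A2, COL3A1, COL1A2 and COL26A1 stayed lower in P than in E at this scaling, with log2 ratios of -0.82, -0.53, -0.26, -0.28 and -1.18, whereas COL1A1 moved to 0.04 and COL5A2 to 0.63. COL12A1, COL15A1, COL16A1, COL17A1, COL21A1, COL6A5 and COL8A1 likewise turned from lower to higher in P than in E. So did every gene with a P over E log2 ratio between -0.79 and 0, among them P4HB, PPIB, HSPG2, LAMC3 and PCOLCE2. COL6A1, COL6A2 and COL6A3 stayed higher in P than in both other libraries. L remained above P for COL4A1 and COL4A2, at 1.44 and 1.16, and for COL1A2 and COL3A1, at 0.08 and 0.23, but not for COL1A1, at -0.26, nor for COL17A1, at -0.03. Ratios between chains do not depend on the scaling.

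The 2 chains of the type IV trimer, and likewise those of type I, stood in nearly the same proportion in E and L and in another in P. COL4A1 had 1.41 times the FPKM of COL4A2 in E, 1.16 times in P and 1.41 times in L. COL1A1 stood at 0.567 of COL1A2 in E, 0.704 in P and 0.556 in L, although the type I trimer holds more alpha 1 than alpha 2 chains. Between trimers, type III against type I was 1.85 in E, 1.86 in P and 2.07 in L for COL3A1 over COL1A2. For COL3A1 over COL1A1 it was 3.26, 2.65 and 3.72, lowest in P. COL4A1 relative to COL1A1 varied more, with 0.792 in E, 0.437 in P and 1.43 in L, so the balance of these basement membrane and fibrillar chains differed by library.

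Collagen chains are hydroxylated, glycosylated and folded in the endoplasmic reticulum by a set of enzymes and chaperones. Of 20 such genes found of 21 listed, 1 was at least 2-fold lower in P than in E and 0 were higher. The shares of all protein-coding genes were 6.69% and 10.5%. Between L and P, 2 were higher in L, beside 8.57%, and 1 was lower in L, beside 16.2%. PLOD2, the lysyl hydroxylase of telopeptides, had 17.9 FPKM in E, 8.24 FPKM in P and 32.1 FPKM in L, so L was 3.89 times P. CREB3L1, a transcription factor of the endoplasmic reticulum that acts on type I collagen genes, had 12.3, 6.98 and 21.5 FPKM. Both were lowest in P and highest in L, the order of COL4A1 and COL4A2. P4HB, the disulfide isomerase subunit of prolyl hydroxylase, had 379 FPKM in E, 227 FPKM in P and 432 FPKM in L, and PPIB, a prolyl isomerase, had 341, 239 and 333 FPKM, and both genes also serve other secreted proteins. These 4 named genes were all lowest in P and do not stand for the list. The median log2 ratio of P over E over the list was 0.14, since 13 of the 20 genes were higher in P and 7 lower. Among the 13 were SERPINH1 with 26.5, 35.3 and 22.0 FPKM and CRTAP with 6.72, 11.2 and 6.52 FPKM. P3H2, also among them, had 2.54, 3.36 and 1.40 FPKM and was the gene 2-fold lower in L than in P.

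Outside the cell, propeptides are cut off and fibrils are cross-linked. Of 12 genes found of 13, 2 were at least 2-fold lower in P than in E, beside 6.69% of all genes. Between L and P, 4 were at least 2-fold higher in L, beside 8.57%, and 1 lower, beside 16.2%. TLL2, with 0.996, 0.277 and 0.757 FPKM in E, P and L, was among the genes lower in P in both comparisons. LOXL4, with 0.403, 0.328 and 1.01 FPKM, was among those higher in L than in P. Both were under 1 FPKM in P, where the precision of values is unknown. ADAMTS3, a procollagen N-proteinase, had 3.22 FPKM in E, 1.33 FPKM in P and 3.86 FPKM in L. PCOLCE2, an enhancer of C-propeptide removal, had 2.70, 1.89 and 5.26 FPKM, while its relative PCOLCE had 13.9, 18.8 and 13.1 FPKM and was highest in P. TLL1, a C-proteinase, had 9.07, 7.20 and 7.12 FPKM. The gene 2-fold lower in L than in P was LOX, with 7.76, 10.5 and 4.61 FPKM. Its relatives LOXL1, with 4.25, 5.55 and 4.19 FPKM, and LOXL2, with 2.05, 3.24 and 1.86 FPKM, were also highest in P. LOXL3, with 3.40, 3.24 and 3.12 FPKM, was highest in E, and LOXL4 in L.

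Proteins that bind fibrils did not follow the fibrillar chains as a group. Of 13 genes, 1 was at least 2-fold higher and 1 at least 2-fold lower in P than in E, beside 10.5% and 6.69% of all genes. Between L and P, 3 were at least 2-fold lower in L, beside 16.2%. SPARC, a collagen-binding protein of matrix assembly, had 155 FPKM in E, 63.6 FPKM in P and 122 FPKM in L, the order of COL1A2 and COL3A1. DCN, the proteoglycan decorin that coats fibrils, had 131 FPKM in E, 254 FPKM in P and 106 FPKM in L, and was highest where SPARC was lowest. THBS2, a matricellular protein that affects fibril assembly, had 5.73, 18.7 and 3.31 FPKM, and P was 3.26 times E and 5.66 times L. LUM, OGN and ASPN, small leucine-rich proteins of the same family as DCN, had the order of SPARC. LUM had 47.6, 32.1 and 40.2 FPKM and OGN had 17.9, 9.70 and 13.4 FPKM. None of these 3 was 2-fold apart. PRELP, FMOD and BGN, also small leucine-rich proteins, were highest in P as DCN was. PRELP had 2.12, 3.997 and 2.08 FPKM in E, P and L. FMOD had 3.54, 3.98 and 1.83 FPKM, P being 2.17 times L. BGN had 13.02, 13.1 and 12.69 FPKM and was nearly flat.

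The partners of type IV collagen in basement membranes differed little between libraries on the FPKM scale. Of 15 genes found of 16, among them laminins, nidogens and proteoglycans, 14 could be compared between P and E. None of the 14 was 2-fold apart, beside 17.2% of all genes. LAMA1, at 0.741 FPKM or less, was the only one 2-fold apart between L and P, beside 24.7%. After division by the protein-coding sum 4 were 2-fold apart in each of these comparisons, beside 38.7% and 34.9%. LAMB1 had 28.0, 26.1 and 29.7 FPKM in E, P and L, and LAMC1 had 24.9, 25.6 and 23.4 FPKM. HSPG2, the proteoglycan perlecan, had 16.8 FPKM in E, 11.1 FPKM in P and 20.8 FPKM in L, and LAMC3 had 2.14, 1.67 and 2.97 FPKM. HSPG2 and LAMC3 shared the order of COL4A1, with L at 1.87 and 1.78 times P. LAMB1, NID1, AGRN and PXDN had this order too, with L at 1.14, 1.45, 1.23 and 1.66 times P. The other genes of the list had other orders. The summed level of the list was 176 FPKM in E, 178 FPKM in P and 184 FPKM in L.

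Of 9 collagen receptors, ITGA2 and ITGA11 were at least 2-fold higher in P than in E, beside 10.5% of all genes. ITGA10 was at least 2-fold lower in P, beside 6.69%, and was under 1 FPKM in each library. ITGA2, which pairs with ITGB1 to bind type I collagen, had 1.20 FPKM in E, 2.76 FPKM in P and 1.12 FPKM in L. ITGB1 itself had 109, 95 and 120.1 FPKM. DDR2, a receptor kinase for fibrillar collagen, had 24.7, 22.1 and 19.9 FPKM, and MRC2, an endocytic receptor that clears collagen fragments, had 8.92 FPKM in E, 14.0 FPKM in P and 7.5 FPKM in L. None of these 3 was 2-fold apart.

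**Figure D5:**
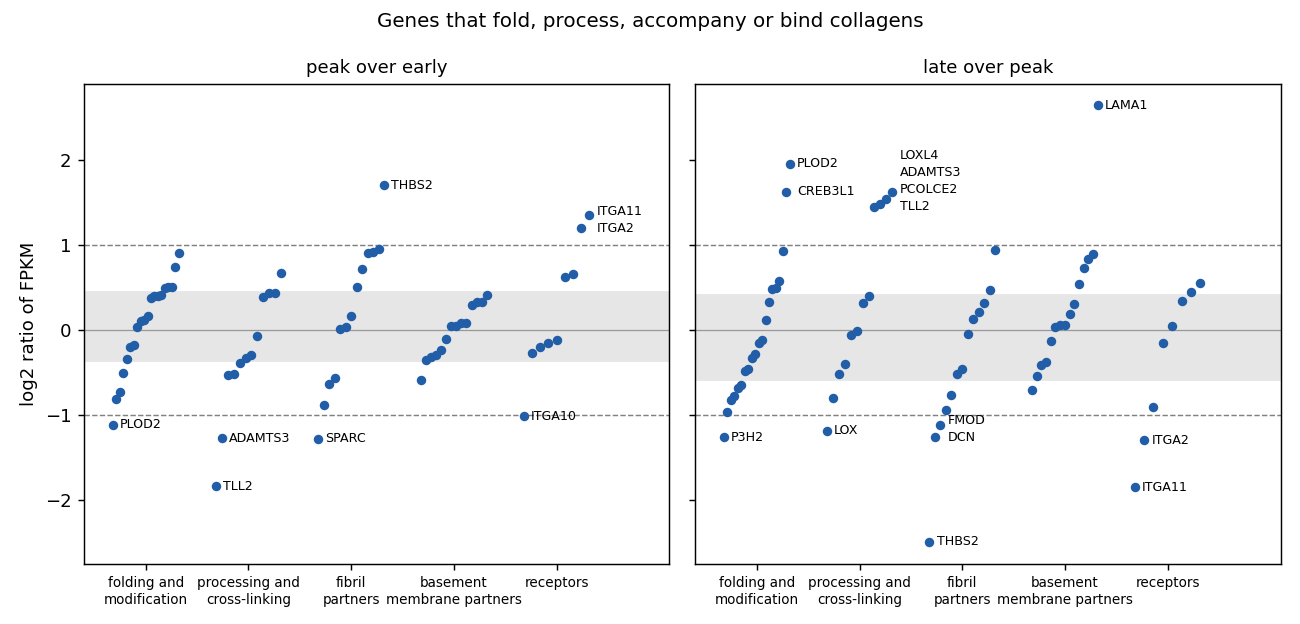
log2 ratio of FPKM for genes that fold, process, accompany or bind collagens, 1 point per gene, for P over E and L over P. Dashed lines mark 2-fold and the grey band is the interquartile range of all protein-coding genes; no basement membrane partner passes 2-fold for P over E.

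Fibroblast markers were mixed in their order. Over 9 fibroblast markers, DCN and LUM among them, the summed level was 281 FPKM in E, 439 FPKM in P and 246 FPKM in L, and none was at 0. DCN alone gave 131, 254 and 106 FPKM of these sums, and LUM had the order of COL1A1, COL1A2 and COL3A1. PDGFRA had 13.7 FPKM in E, 28.0 FPKM in P and 11.3 FPKM in L, and THY1 had 17.8, 34.4 and 12.9 FPKM, both highest in P where COL1A1, COL1A2 and COL3A1 were lowest. Without DCN and LUM, which are matrix genes themselves, 5 of the 7 others were higher in P than in E. PI16, a marker of one fibroblast subset, went the other way with 4.63, 1.28 and 13.1 FPKM. Their part in the collagen values was not tested.

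Endothelial markers, 7 found of 8, summed to 148 FPKM in E, 139 FPKM in P and 160 FPKM in L. None was 2-fold apart in any comparison, beside 17.2% of all genes for P and E, 7.08% for L and E and 24.7% for L and P. Over 8 pericyte and smooth muscle markers the sums were 389, 363 and 444 FPKM. RGS5, a pericyte marker in this list, had 24 FPKM in E, 10.0 FPKM in P and 35.5 FPKM in L, which is the order of COL4A1, with L at 3.54 times P. DES in the same list went the other way with 5.50, 17.8 and 10.3 FPKM, P being 3.24 times E, and NOTCH3 and TAGLN stood at 1.04 and 1.05 times E in P. Basal epithelial markers, 4 found of 5, summed to 92.0, 115 and 74.9 FPKM and were mixed in their order. KRT5 gave 73.2, 96.7 and 56.6 FPKM of these sums, and TP63, with 4.97, 8.05 and 4.52 FPKM, was also highest in P. OXTR went the other way with 3.83, 1.15 and 5.43 FPKM, L being 4.74 times P. KRT14 had 10.0, 8.75 and 8.34 FPKM. Over 4 leukocyte markers the sums were 33.5, 56.2 and 23.0 FPKM, PTPRC had 17.6, 39.9 and 8.08 FPKM, and CD3E was listed at 0 in E and P. Of 4 adipocyte markers 3 were found and summed to 18.1, 5.85 and 6.41 FPKM. The part of these cell types in the collagen levels was not tested.

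Among 4957 non-collagen protein-coding genes with a mean of at least 10 FPKM, those whose course over the 3 libraries was nearest to that of COL1A1, by distance of centred log2 FPKM, were LOC102186914, NCL, NDUFA3, RPL6 and LOC102184991, at distances of 0.0267 to 0.0373. NCL had 22.2, 13.4 and 17.2 FPKM. With 3 libraries many genes can share a course, and none of the 5 is in the lists of matrix genes given above.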

How the data were processed

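Strand-specific RNA-seq libraries were made from pooled mammary RNA, 1 per stage. Per the labels and the study's methods, the authors aligned reads with TopHat2 2.0.9 and Bowtie2, assembled them with Cufflinks 2.1.1 and deposited FPKM per locus for each library. The methods name the NCBI goat genome, by a version for alignment and by an assembly record for transcript assembly, and which of these the deposited scaffold coordinates follow was not tested. Over all loci used, the lowest value of the highest FPKM across the libraries was 0.674. Loci were summed by NCBI gene ID, which gave 13023 protein-coding genes. Symbols were taken from RefSeq's goat gene table (ARS1.2), and none of its coordinates was used. 0 value columns lacked a sample.

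Ratios were taken where both FPKM were above 0, with no pseudocount, and 2-fold served as a description. With 1 library per stage no test was run. The counting of 2-fold genes was tested on simulated data. Each collagen gene was eligible to be named. From each pathway list the 2 genes of highest mean FPKM and the 2 of largest late over peak log2 ratio, with at least 1 FPKM in both, were named. Further genes, among them ITGA10, ITGA11, LAMA1, NID1, AGRN, PXDN, LUM, OGN, ASPN, PRELP, FMOD, BGN, SERPINH1, CRTAP, P3H2, TLL2, LOX, LOXL1, LOXL2, LOXL3, LOXL4 and the cell type markers, were named after their values were seen. Members and lists were chosen with earlier results of these data known. Alternatives were a 4-fold threshold, a pseudocount of 1, a minimum of 1 FPKM, a floor of 0.001 for values of 0, centring, division by the protein-coding sum, loci kept apart and exchanged P and L columns. Python 3.11.15, numpy 2.4.6, pandas 2.3.3 and matplotlib 3.10.9 were used.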

Additional observations from a re-analysis of the deposited data

How the results depend on the processing

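No collagen gene at least 2-fold apart changed sign under an alternative that keeps the library names. This was fixed in advance, since the largest shift in log2 ratio, 0.79 for P over E, is under 2-fold. A pseudocount or a minimum cannot turn a sign. Smaller ratios did change sign on division by the protein-coding sum. At 4-fold, 1 collagen gene was apart for P over E, 0 for L over E and 2 for L over P, beside 2.94%, 1.57% and 7.18% of all genes. A pseudocount of 1 left 0 for L over E and 3 for L over P, beside 1.86% and 14.9%, and gave medians for fibrillar, basement membrane and other collagens of -0.745, -0.483 and -0.023 for P over E, 0.198 and 0.047 (the last 2 classes) for L over E, and 0.345, 0.635 and -0.394 for L over P. With at least 1 FPKM in one of the libraries, 1 gene was apart for L over E, beside 5.57%, and the median of other collagens turned to -0.02. Centring gave -0.731, -0.389 and -0.009 for P over E, -0.202, 0.207 and 0.077 for L over E, and 0.317, 0.489 and -0.527 for L over P. Division by the protein-coding sum gave 11 genes for P over E and 15 for L over P, beside 38.7% and 34.9%, with medians of 0.036, 0.379 and 0.759, of -0.032, 0.377 and 0.247, and of -0.259, -0.087 and -1.103 in the same order. For P over E it gave 9 folding, 5 processing, 6 fibril partner, 4 basement membrane partner and 4 receptor genes, against 1, 2, 2, 0 and 3 before. For L over P it gave 10, 5, 7, 4 and 3 in the same order, against 3, 5, 3, 1 and 2. With P and L exchanged, 2 genes were apart for P over E and 7 for L over E, beside 7.08% and 17.2%, and the medians were -0.215, 0.194 and 0.064, then -0.757, -0.415 and -0.035, then -0.351, -0.523 and 0.492. P over E then was 0.34 for COL26A1, 0.442 for COL4A1 and 0.446 for COL4A2, and L over P was 1.266 for COL13A1, -2.313 for COL26A1, -2.056 for COL4A1, -1.77 for COL4A2, 1.204 for COL6A5, 1.701 for COL6A6, -1.072 for COL8A1 and -1.08 for COL9A1. The other alternatives were chosen after the data were seen. Requiring both libraries to reach 1 FPKM left 4, 0 and 4 genes apart, beside 12.5%, 2.88% and 18% of all genes. Ratios of class sums were -0.935, -1.31 and 0.141 for P over E, -0.278, 0.425 and -0.135 for L over E, and 0.658, 1.735 and -0.277 for L over P. Without COL4A5 and COL4A6 the basement membrane medians were -1.469, 0.444 and 1.913. Of the 81 log2 ratios of single collagen genes, 16 changed sign on division by the protein-coding sum and 53 with P and L exchanged, and 0 did with the pseudocount, the minimum of 1 FPKM in one or in both libraries, centring or loci kept apart, where a ratio could be formed. Of these alternatives only centring could have turned a sign, because no collagen gene had more than 1 locus. No paired analysis was possible because the RNA of the 5 goats, shared by the stages, was pooled before sequencing, and no replicate could be left out. FPKM under 1 carry an unknown counting error.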
